A study of Mus musculus with 8 samples.

Results

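The mRNAs of 10 factors that remove the 5′ cap of mRNAs and digest them from the 5′ end were examined in mouse oocytes that lack the deadenylases Cnot7 and Cnot8. They were Dcp2, Dcp1a, Dcp1b, Edc4, Edc3, Lsm1, Pnrc1, Pnrc2, Xrn1 and Xrn2, found by gene symbol among the 46078 genes of the count table, with 1 row for each symbol. The data were 8 RNA-seq libraries of fully grown oocytes at the germinal vesicle (GV) stage, before meiosis resumes. In the 4 CNOT7&8 KO libraries, floxed alleles of both genes had been deleted by Cre under the Zp3 promoter, which is active in growing oocytes. The 4 control libraries came from mice that carry the same Zp3-Cre, so that Cre was present in both groups and the controls have intact Cnot7 and Cnot8. The females were 4 weeks old, of a C57BL/6J background and primed with gonadotropin (PMSG), and each library pooled 100 oocytes. The labels number the replicates but do not say which animals they came from, so that p-values measure the spread between libraries.

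Most cytoplasmic mRNA decay starts with shortening of the poly(A) tail, for which CNOT7 and CNOT8 are the catalytic subunits of the CCR4–NOT complex. The deadenylated 3′ end is then bound by the LSM1 to LSM7 ring, DCP2 removes the 5′ cap with the help of DCP1, EDC3 and EDC4, and XRN1 degrades the uncapped body from 5′ to 3′. In mouse oocytes, Dcp1a and Dcp2 are known as stored maternal mRNAs whose translation rises during meiotic maturation. Their translation was not measured in these libraries.

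The study examined the cytoplasmic polyadenylation element (CPE), UUUUAU in the mRNA and TTTTAT in the genome, which binds CPEB in the 3′UTR. In the longest 3′UTR annotated for each gene in GENCODE vM21, searched on the mRNA strand only, 9 of the 10 mRNAs held the element and Edc4 did not. Xrn1 held 10 copies, Dcp2 8 and Dcp1a 5, Dcp1b, Xrn2, Lsm1 and Pnrc2 held 2 each, and Edc3 and Pnrc1 held 1. Over all genes with a 3′UTR of at least 50 bases it was present in 52.4% of 20674, and longer 3′UTRs hold it more often. Among 3′UTRs of like length (within a factor of 0.8 either way), the share was 90.1% for the length of Dcp1a (3757 bases), 94.3% for Xrn1 (4994 bases), 31.4% for Xrn2 (452 bases), 39.6% for Pnrc1 (641 bases), 76.4% for Lsm1 (1877 bases), 56.7% for Pnrc2 (1096 bases) and 26.2% for Edc4 (363 bases). For Dcp2 (7240 bases) this share was 99.0%, for Edc3 (4004 bases) 90.7% and for Dcp1b (1536 bases) 69.1%. The sites below are shown because the element was found both in mRNAs that were higher and in mRNAs that were lower in KO oocytes. Capitals mark the element, and position 1 is the base that follows the stop codon. Polyadenylation signals (AATAAA or its variant ATTAAA) were looked for in the last 50 bases of the 3′UTR. Only in Dcp1a did a copy start within 100 bases before the start of such a signal. This copy, at position 3691, ended 22 bases before the signal, and another, at position 3618, ended 95 bases before it. Edc3, Lsm1 and Pnrc1 had no signal in the last 50 bases, and Edc4 had no element, so that these could not meet this criterion. Signals farther upstream were not counted for it. The element can share its last bases with the variant signal.
Dcp1a (chr14:30526987-30527012, plus strand, position 3691): tcatcctaaaTTTTATatgtttgcaa
Dcp1a (chr14:30526914-30526939, plus strand, position 3618): gtggtgtggaTTTTATaccatctgtg
Xrn2 (chr2:147077580-147077605, plus strand, position 42): cagtctacatTTTTATgctatttgtg
Pnrc1 (chr4:33245909-33245934, minus strand, position 140): ttgtattataTTTTATattttgtaaa
Lsm1 (chr8:25803218-25803243, plus strand, position 1130): aaatacacttTTTTATgttctcaggt
Pnrc2 (chr4:135871269-135871294, minus strand, position 730): tgtattaagtTTTTATaattgaaaag

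Counts per library summed to between 14943671 and 44092144 in control and to between 8639444 and 26784110 in KO. A total of 3 counts, the smallest taken as detected, stood for 0.347 CPM (counts scaled to a library total of 1000000) of the unscaled total in KO replicate 1, the shallowest library, a floor that covers counting error only. Cnot8 was at 21.0% and Cnot7 at 77.1% of the control level, and counts over a whole gene include exons that were not deleted. On the TMM scale used for the CPM values that follow, the 10 oocyte markers, among them Zp3, Gdf9 and Bmp15, were above 1 CPM in every library. Their sum was 20904, 17925, 18388 and 17892 CPM in control and 16235, 16970.1, 14726 and 14684 CPM in KO replicates 1 to 4, lower in every KO library, with 4 of the 10 below and 1 above the controls in all KO libraries. With library size only, the sums of the groups overlapped. Of 14 granulosa and cumulus markers, 6 were above 1 CPM in every library, and the defining marker Foxl2 had 0 or 1 count in each. Their sum was 109.6, 91.8, 95.4 and 103 CPM in control and 161, 161, 115 and 87.9 CPM in KO replicates 1 to 4. The markers did not move together. Cyp19a1, with over 0.5 of the control sum, was at 50.4 to 67.7 CPM in control and 23.5 to 38.0 CPM in KO libraries. Kitl was at 11.9 to 20.7 CPM in control and 30.3 to 52.2 CPM in KO, and Fshr at 0.952 to 1.58 CPM and 2.90 to 5.76 CPM. Without Cyp19a1, which was left out after the values were seen, the sum was 41.8, 38.5, 44.97 and 40.3 CPM in control and 129, 123, 91.4 and 56.9 CPM in KO replicates 1 to 4. The part of other cells in the differences given here was not tested. Control replicate 1 and KO replicate 4 stood apart from the other libraries of their groups. They were also the deepest of their groups, at 44092144 and 26784110 counts, and the part of depth in this was not tested. The 2 deviated together over all genes (r = 0.37 of the log2 deviations from the group means, as a description). It was the highest r of a control with a KO library, the lowest being -0.33 (control replicate 1 with KO replicate 3). Values without both libraries are given with Edc4, Edc3 and Xrn1, and for other mRNAs under how the results depend on the processing.

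All 10 mRNAs passed the filter on low counts (at least 0.2 CPM in 2 or more libraries). Edc3, Lsm1 and Pnrc2 rose in KO oocytes, Dcp2, Dcp1a, Dcp1b, Edc4, Pnrc1 and Xrn2 fell, and Xrn1 was not called in either direction. At an adjusted p of at most 0.05 (edgeR's quasi-likelihood test over all 19241 genes tested), 3 of the 10 were higher, where 31.2% of all genes were, and 6 were lower, where 24.1% of all genes were. Where the mean level reached 10 CPM or more, as it did for 7 of the 10, 20.9% of genes were higher and 41.9% lower. Of these 7, Lsm1 was higher, Dcp2, Dcp1a, Edc4, Pnrc1 and Xrn2 were lower, and Xrn1 was not called. A change of at least 2-fold was reached by Dcp1b, Edc4 and Edc3, 3 of 10 beside 30.4% of all genes tested. On the TMM scale, the KO and control libraries did not overlap for 9 of the 10, beside 48.4% of all genes. Of the 8728 genes of at least 10 CPM, 4893 did not overlap. With library size only, the groups overlapped for Dcp1a, Dcp1b, Edc4, Pnrc1 and Xrn2, and were apart for Xrn1. The share over all genes was not counted with library size only. The median log2 fold change was -0.38 over the 10 mRNAs, 0.12 over all genes tested and -0.26 over those of at least 10 CPM. The sources name different library kits, and if mRNA was selected by its poly(A) tail these values also depend on tail length, which was not tested. Fewer cells and less RNA per cell cannot be told apart in pooled oocytes, and these values are relative to the rest of each library.

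**Figure D1:**
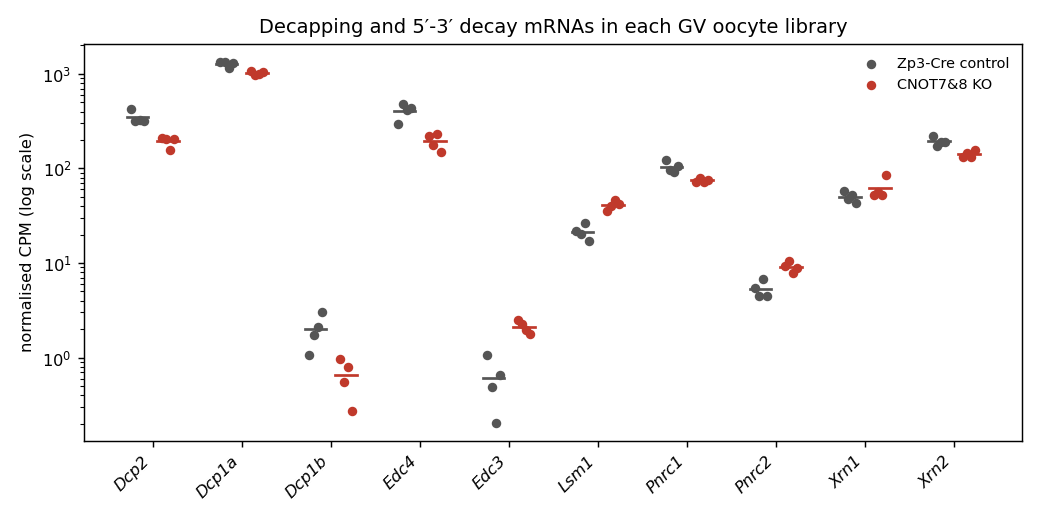
Normalised CPM (log scale) of the 10 mRNAs in each library, gray for Zp3-Cre control and red for CNOT7&8 KO, with the 4 replicates in order from left to right and a line at the group mean. On this scale the groups are apart for every mRNA but Xrn1, in which KO replicate 4 lies at 84.5 CPM and the other KO libraries within the control range.

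The mRNA of the catalytic subunit fell in KO oocytes. Dcp2 (ENSMUSG00000024472, plus strand of chromosome 18, 44380502 to 44424969 in GRCm38), which encodes the hydrolase that releases the cap, had 346 ± 52.4 CPM in controls against 194 ± 24.9 CPM in KO (mean ± SD, n = 4 each), 56.2% of the control level. It measured 424, 319, 323 and 317 CPM in control replicates 1 to 4 and 208, 207, 157 and 206 CPM in KO replicates 1 to 4. No KO library reached the lowest control library, control replicate 1 lay above the other controls, and KO replicate 3 lay below the other KO libraries. The fall passed the test (log2 fold change -0.83, SE 0.13, adjusted p = 0.000232), and the exact permutation test over the 70 assignments of 8 libraries gave its smallest possible two-sided p, 0.0286.

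Of the mRNAs for the 2 DCP1 coactivators, which activate DCP2, one was abundant and the other near the limit of detection. Dcp1a (ENSMUSG00000021962, plus strand of chromosome 14, 30479535 to 30527063 in GRCm38) was the most abundant of the 10 mRNAs, at 1276 ± 83.3 CPM in controls against 1026 ± 40.0 CPM in KO (mean ± SD, n = 4 each). It measured 1320.0, 1335, 1153 and 1296 CPM in control replicates 1 to 4 and 1062, 979, 1008 and 1057 CPM in KO replicates 1 to 4. The groups did not overlap, and the difference was small (log2 fold change -0.31, SE 0.094, adjusted p = 0.0132). It did not pass with libraries scaled by size only (log2 fold change -0.031, adjusted p = 0.75). Dcp1b (ENSMUSG00000041477, plus strand of chromosome 6, 119175253 to 119221616 in GRCm38) had 40, 35, 31 and 42 counts in control and 9, 10, 13 and 8 counts in KO replicates 1 to 4. In normalised values this was 1.07, 1.73, 2.11 and 3.06 CPM in control and 0.977, 0.549, 0.802 and 0.272 CPM in KO. On the TMM scale every KO library was below every control library, with KO replicate 1 only just below control replicate 1 (log2 fold change -1.68, SE 0.45, adjusted p = 0.00681). With library size only, the groups overlapped. With 8 to 42 counts per library the size of this fall is poorly known, and it ranged from -1.92 to -1.35 when each library was left out in turn.

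The mRNAs of the 2 enhancers of decapping moved in opposite directions. Edc4 (ENSMUSG00000036270, plus strand of chromosome 8, 105880881 to 105894908 in GRCm38), which encodes the scaffold that holds DCP1 and DCP2 together, had 405 ± 77.0 CPM in controls against 194 ± 36.2 CPM in KO (mean ± SD, n = 4 each). It measured 297, 476, 411 and 438 CPM in control replicates 1 to 4 and 218, 176, 229 and 151 CPM in KO replicates 1 to 4. The groups did not overlap on the TMM scale, but did with library size only. Control replicate 1 and KO replicate 4 were each the lowest of their group. The fall was 2.09-fold (log2 fold change -1.07, SE 0.17, adjusted p = 0.000191) and remained past the test with both of those libraries left out (log2 fold change -1.09, adjusted p = 1.62e-06). Edc3 (ENSMUSG00000038957, plus strand of chromosome 9, 57708540 to 57752499 in GRCm38) encodes an activator that binds DCP2 and the helicase DDX6. It was rare, with 40, 10, 3 and 9 counts in control and 23, 41, 32 and 52 counts in KO replicates 1 to 4. In CPM these were 1.07, 0.494, 0.204 and 0.656 in control and 2.50, 2.25, 1.97 and 1.77 in KO. The normalised level was 0.606 ± 0.361 CPM in controls against 2.12 ± 0.318 CPM in KO (mean ± SD, n = 4 each), and the lowest KO library, at 1.77 CPM, was above the highest control library, at 1.07 CPM. The rise was called (log2 fold change 1.70, SE 0.39, adjusted p = 0.00307), and its log2 fold change was 2.28 without control replicate 1 and KO replicate 4.

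Exons of Edc3 overlap those of Clk3 on the opposite strand over 22.1% of their length, and the strand setting of the counting is not given in the sources used here. Clk3, a kinase gene named here only for this overlap, had 41.3, 77.2, 76.7 and 70.7 CPM in control and 40.3, 34.9, 45.1 and 26.4 CPM in KO replicates 1 to 4. It was lower in KO (log2 fold change -0.86, SE 0.21, adjusted p = 0.00447), the opposite direction to Edc3. In counts, Clk3 exceeded Edc3 by 117 times in control and by 16.9 times in KO (geometric means of 4 libraries, a ratio added after the values were seen).

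Lsm1, which encodes the subunit that sets the cytoplasmic LSM ring apart from the nuclear one, nearly doubled. Lsm1 (ENSMUSG00000037296, plus strand of chromosome 8, 25785288 to 25803975 in GRCm38) had 21.3 ± 3.80 CPM in controls against 41.4 ± 4.54 CPM in KO (mean ± SD, n = 4 each), 194% of the control level. It measured 21.8, 20.1, 26.3 and 17.2 CPM in control replicates 1 to 4 and 35.8, 40.5, 46.8 and 42.3 CPM in KO replicates 1 to 4. The lowest KO library was above the highest control library (log2 fold change 0.96, SE 0.15, adjusted p = 0.000217). None of the 6 subunits that LSM1 shares with the nuclear ring was called higher. Lsm3, Lsm4, Lsm5, Lsm6 and Lsm7 fell, by 0.40, 0.99, 0.69, 0.34 and 1.58 on the log2 scale (adjusted p = 0.00823, 0.0068, 0.000337, 0.013 and 0.00163), and Lsm2 had a log2 fold change of -0.17 (adjusted p = 0.329). With library size only, Lsm3 and Lsm6 no longer passed, at -0.11 and -0.056, and Lsm2 turned to 0.12.

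The falls of Lsm4 and Lsm7 rested on fewer counts than those of the others. Lsm7 measured 12.1, 31.9, 32.4 and 29.2 CPM in control and 10.4, 8.90, 11.7 and 4.56 CPM in KO replicates 1 to 4, and control replicate 1 lay close to the KO libraries. Lsm4 measured 8.72, 15.8, 17.6 and 17.5 CPM in control and 8.90, 8.35, 8.26 and 4.53 CPM in KO replicates 1 to 4, so that control replicate 1 fell within the KO range. Lsm8, which takes the place of LSM1 in the nuclear ring, was at 10.3 ± 1.84 CPM in controls against 10.1 ± 0.858 CPM in KO (mean ± SD, n = 4 each) and did not pass the test (log2 fold change -0.022, SE 0.17, adjusted p = 0.919). The number of Lsm1 counts for each Lsm8 count was 2.54, 1.91, 2.05 and 1.84 in control and 3.87, 4.21, 4.18 and 4.07 in KO replicates 1 to 4. This ratio does not depend on the scaling of libraries and did not overlap between the groups. It was chosen after the values were seen and has no test.

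**Figure D2:**
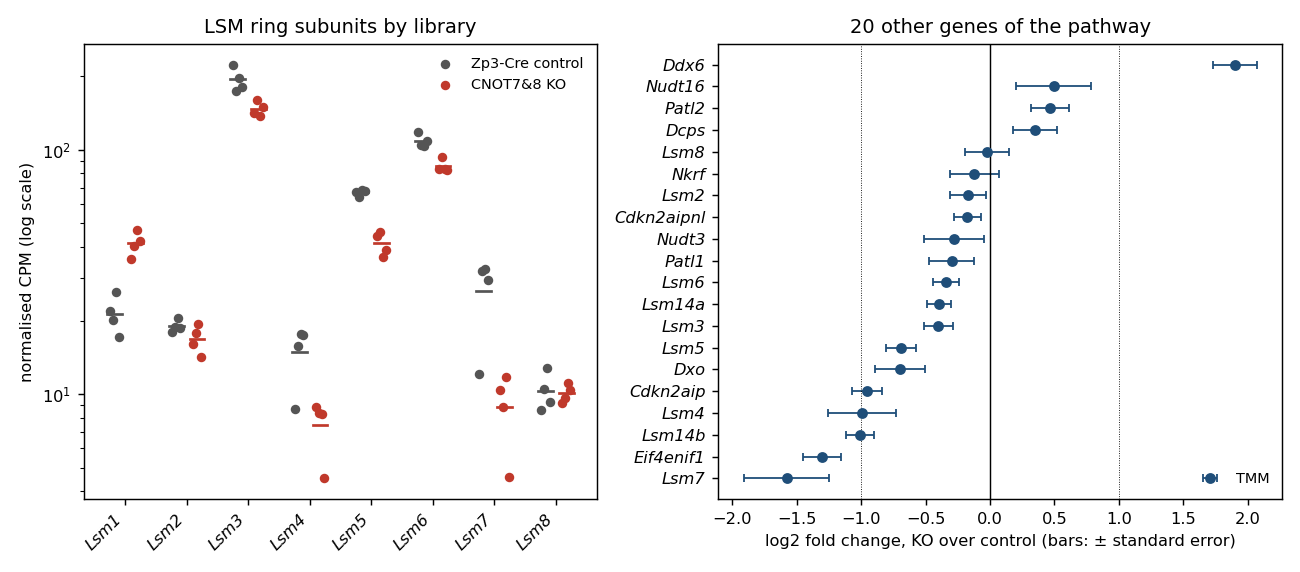
Left, normalised CPM (log scale) of the LSM ring subunits in each library, gray for control and red for KO with lines at the means. Right, edgeR log2 fold changes with standard errors of 20 other genes of the pathway, with dotted lines at 2-fold. Lsm1 lies above the control libraries in every KO library while Lsm3, Lsm5, Lsm6 and Lsm7 lie below them.

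The 2 proline-rich coactivators of the PNRC family moved apart. Pnrc2 (ENSMUSG00000028675, minus strand of chromosome 4, 135870918 to 135873850 in GRCm38), which encodes a small adaptor that binds DCP1A and brings it to UPF1 in nonsense-mediated decay, had 5.29 ± 1.07 CPM in controls against 9.15 ± 1.17 CPM in KO (mean ± SD, n = 4 each). It measured 5.48, 4.44, 6.74 and 4.52 CPM in control replicates 1 to 4 and 9.34, 10.6, 7.77 and 8.89 CPM in KO replicates 1 to 4. All KO libraries exceeded all control libraries (log2 fold change 0.79, SE 0.19, adjusted p = 0.00394). Pnrc1 (ENSMUSG00000040128, minus strand of chromosome 4, 33245423 to 33290163 in GRCm38), its paralogue with a nuclear and nucleolar protein, had 105 ± 14.1 CPM in controls against 74.8 ± 3.17 CPM in KO (mean ± SD, n = 4 each). It measured 124, 97.1, 91.3 and 106 CPM in control replicates 1 to 4 and 72.8, 79.4, 72.5 and 74.7 CPM in KO replicates 1 to 4. The KO libraries were close together and below every control library (log2 fold change -0.48, SE 0.12, adjusted p = 0.00399). The fall of Pnrc1 did not pass with library size only (log2 fold change -0.20, adjusted p = 0.117), whereas the rise of Pnrc2 was 1.07 there.

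Of the 2 exonucleases, the nuclear one fell. Xrn2 (ENSMUSG00000027433, plus strand of chromosome 2, 147012996 to 147078000 in GRCm38), which degrades RNA in the nucleus and acts in transcription termination, had 194 ± 20.4 CPM in controls against 142 ± 12.5 CPM in KO (mean ± SD, n = 4 each). It measured 223, 174, 190.0 and 191 CPM in control replicates 1 to 4 and 133, 146, 131 and 158 CPM in KO replicates 1 to 4. The groups did not overlap (log2 fold change -0.46, SE 0.11, adjusted p = 0.00436), and the fall did not pass with library size only (log2 fold change -0.17, adjusted p = 0.157). Xrn1 (ENSMUSG00000032410, plus strand of chromosome 9, 95954760 to 96057803 in GRCm38), the cytoplasmic enzyme that digests decapped mRNAs, had 50.1 ± 6.45 CPM in controls against 61.6 ± 15.4 CPM in KO (mean ± SD, n = 4 each). It measured 58.2, 47.2, 51.9 and 43.2 CPM in control replicates 1 to 4 and 52.7, 56.6, 52.5 and 84.5 CPM in KO replicates 1 to 4. The groups overlapped, KO replicate 4 lay far above the other KO libraries, and control replicate 1 was the highest control library. Xrn1 did not pass the test (log2 fold change 0.30, SE 0.17, adjusted p = 0.148), nor without those libraries (log2 fold change 0.19, adjusted p = 0.147). With library size only it was called higher (log2 fold change 0.58, adjusted p = 0.00951), so that its call depends on the scaling.

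How libraries were scaled moved all log2 fold changes together. The median over all genes tested was 0.12 with TMM, 0.37 with TMM on genes of at least 10 CPM and 0.41 with library size only. None of the 10 mRNAs changed direction under these scalings, but Dcp1a, Pnrc1 and Xrn2 lost their calls with library size only and with TMM on genes of at least 10 CPM, and Xrn1 gained one. Under both of these scalings 3 of the 10 were lower (Dcp2, Dcp1b and Edc4) and 4 higher (Edc3, Lsm1, Pnrc2 and Xrn1). Of all 19241 genes tested, 7744 were higher and 2618 lower with library size only. With TMM on genes of at least 10 CPM, 7589 were higher and 2865 lower. The calls of Dcp2, Dcp1b, Edc4, Edc3, Lsm1 and Pnrc2 were thus made under each of the 3 scalings plotted. By library size alone, log2 fold changes were -0.55 for Dcp2, -1.41 for Dcp1b, -0.79 for Edc4, 1.24 for Lsm1 and 1.07 for Pnrc2, which put Lsm1 and Pnrc2 past 2-fold and Edc4 short of it.

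**Figure D3:**
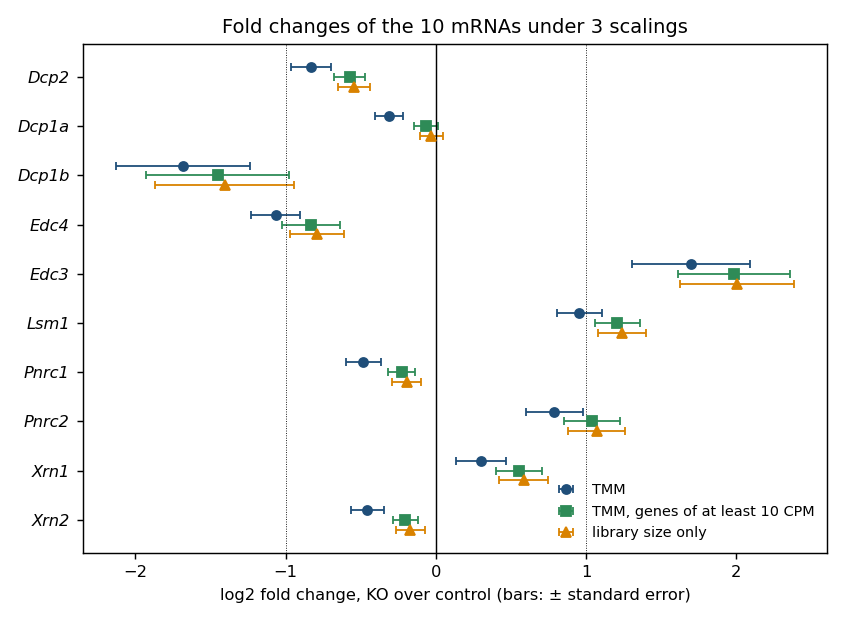
Log2 fold changes (KO over control) of the 10 mRNAs by edgeR's quasi-likelihood fit with 3 ways of scaling libraries, with bars for the standard error and dotted lines at 2-fold. All values shift to the right from TMM to library size only, and Dcp1a moves from -0.31 to -0.031.

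Ratios of related mRNAs within a library are free of the scaling. Of 4 ratios compared, 3 differed between the groups with no overlap (two-sided exact permutation tests, each at the smallest possible p of 0.0286, or 0.0381 after Benjamini-Hochberg adjustment over the 4). For each Xrn1 count there were 3.83, 3.69, 3.66 and 4.42 Xrn2 counts in control and 2.52, 2.58, 2.49 and 1.86 in KO replicates 1 to 4, so that the balance moved toward the cytoplasmic exonuclease by 0.73 on the log2 scale. For each Pnrc2 count there were 22.5, 21.7, 13.5 and 23.4 Pnrc1 counts in control and 7.75, 7.47, 9.30 and 8.39 in KO. Control replicate 3 was the lowest control library in this ratio and still above every KO library. For each Edc3 count there were 274, 918, 1725 and 633 Edc4 counts in control and 85.5, 77.4, 114 and 84.5 in KO, with 3 to 40 Edc3 counts in a control library. The Dcp1a to Dcp1b ratio overlapped between the groups, at 1219, 762, 538 and 419 in control and 1029, 1697, 1210.1 and 3650.4 in KO (exact permutation test, two-sided p = 0.0857, also after adjustment). A ratio shows that 2 mRNAs changed unequally, and not which of them changed. The ratios of Pnrc1 to Pnrc2 and of Edc3 to Edc4 had to separate, because their mRNAs lay apart in opposite directions with TMM. Their permutation tests restate that separation and are not further support for it.

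**Figure D4:**
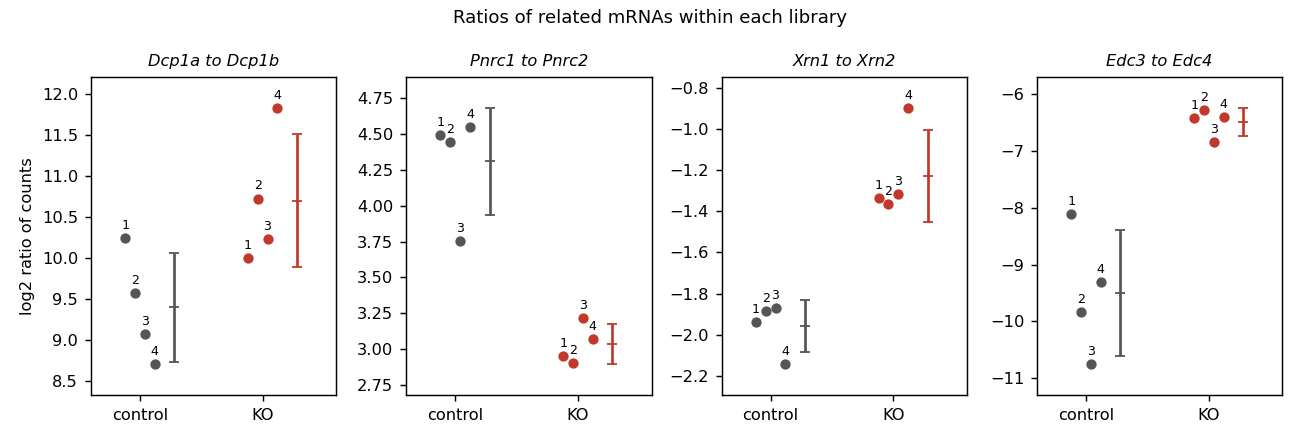
Log2 ratio of counts (with 0.5 added to each) for 4 pairs of related mRNAs in each library, numbered by replicate, with the mean and SD beside the points. The groups are apart for Pnrc1 to Pnrc2, Xrn1 to Xrn2 and Edc3 to Edc4, and overlap for Dcp1a to Dcp1b.

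Per kilobase of annotated exon, the control level was highest for Dcp1a, at 155 ± 10.1 CPM per kb (SD, n = 4). Edc4 followed at 73.7 ± 14.0, Pnrc1 at 49.9 ± 6.75, Xrn2 at 48.9 ± 5.13 and Dcp2 at 39.8 ± 6.02 CPM per kb. The control ranges of Edc4 and Pnrc1, of Pnrc1 and Xrn2, and of Xrn2 and Dcp2 overlapped, although Xrn2 was above Dcp2 within each of the 4 libraries. The ranges of Edc4 and Dcp2 did not overlap. Lower came Lsm1 at 6.90 ± 1.23, Xrn1 at 2.70 ± 0.347 and Pnrc2 at 2.39 ± 0.484 CPM per kb, the last 2 of which overlapped. Dcp1b and Edc3 were at the bottom, at 0.314 ± 0.131 and 0.104 ± 0.0622 CPM per kb, and overlapped as well. In KO oocytes Dcp1a still led, at 125 ± 4.86 CPM per kb. Pnrc1, Xrn2 and Edc4 lay close together at 35.7, 35.6 and 35.2 CPM per kb. Edc3 stood above Dcp1b in every KO library, at 0.366 ± 0.0548 against 0.103 ± 0.0484 CPM per kb. Exon length was the union of all annotated exons, 18585 bases for Xrn1, which can be longer than the transcript present in oocytes.

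Of 20 other genes of the pathway, all of which passed the filter, 2 were higher and 10 lower in KO, beside the 31.2% and 24.1% of all genes given above. At 10 CPM or more, as 17 of the 20 were, these shares were 20.9% and 41.9%. With library size only, or TMM on genes of at least 10 CPM, 4 of the 20 were higher and 6 lower. Under these 2 scalings, in that order, 7744 and 7589 of all 19241 genes tested were higher, and 2618 and 2865 lower. The median log2 fold change of the 20 was -0.32 in the main fit. The largest change was that of Ddx6, the helicase that links deadenylation to decapping and binds EDC3, which rose 3.74-fold. It measured 55.7, 36.7, 47.2 and 40.4 CPM in control replicates 1 to 4 and 152, 137, 168 and 216 CPM in KO replicates 1 to 4. The groups lay far apart (log2 fold change 1.90, SE 0.17, adjusted p = 3.06e-06). Patl2, an oocyte protein of the PAT1 family, rose by 0.46 on the log2 scale (adjusted p = 0.0186), and this call was lost without control replicate 2 (adjusted p = 0.062) or control replicate 4 (adjusted p = 0.0608). Patl1, the widely expressed paralogue, did not pass (log2 fold change -0.30, SE 0.17, adjusted p = 0.164).

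Besides the 5 LSM ring subunits, the lower genes included Eif4enif1, Lsm14b and Lsm14a. Eif4enif1 (4E-T), which binds the cap-binding protein eIF4E, fell to 40.5% of its control level. It measured 546, 395, 343 and 370.4 CPM in control replicates 1 to 4 and 159, 161, 157 and 192 CPM in KO replicates 1 to 4. All KO libraries were below the lowest control library (log2 fold change -1.30, SE 0.15, adjusted p = 1.84e-05). Lsm14b, an oocyte RNA-binding protein of the RAP55 family, fell from 996 ± 68.3 to 495 ± 54.0 CPM (SD, n = 4 each; log2 fold change -1.01, SE 0.11, adjusted p = 1.33e-05). Its paralogue Lsm14a fell less, from 337 ± 14.2 to 256 ± 11.4 CPM (with log2 fold change -0.40, SE 0.092, adjusted p = 0.00301), and not past the test with library size only (log2 fold change -0.11). Of 4 other enzymes that act on caps and 5′ ends, Dxo fell (log2 fold change -0.70, SE 0.20, adjusted p = 0.00952), with control replicate 1 within the KO range and no call with library size only. Dcps, which cleaves the cap left after 3′ to 5′ decay, Nudt16 and Nudt3 did not pass, with log2 fold changes of 0.35, 0.49 and -0.28. With library size only, Dcps and Nudt16 were called higher, at 0.62 and 0.79. Of the proteins known to bind XRN2, Cdkn2aip fell to 51.5% of the control level (log2 fold change -0.96, SE 0.11, adjusted p = 2.83e-05), and Cdkn2aipnl and Nkrf did not pass, at -0.17 and -0.12.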

How the data were processed

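The 8 RNA-seq libraries of GV oocytes comprised 4 of Zp3-Cre control and 4 of CNOT7&8 KO oocytes. Groups and replicate numbers came from the sample labels. The labels name a total-RNA kit with removal of ribosomal RNA, and the study's methods an mRNA kit described as depleting it, so that the kit is uncertain. If mRNA was selected by its poly(A) tail, a fold change also depends on tail length, which was not tested. With the nf-core/rnaseq pipeline, the authors mapped 150-bp read pairs to GRCm38 by STAR (2.6.1d in the submitters' notes) and deposited raw counts of reads per gene for each replicate. Both kits are stranded. The counting tool within the pipeline, its annotation and its strand setting are not given in the sources used here. The authors used edgeR (3.11 in those notes) for their own tests, which are not used here.

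The 19241 genes that reached 0.2 CPM in at least 2 libraries were compared with the quasi-likelihood test of edgeR 4.0.16 (R 4.3.3), TMM scaling and Benjamini-Hochberg adjustment over all of them. The test gives no standard error, so SE is the absolute log2 fold change divided by the square root of its F statistic. CPM of genes and markers are relative to TMM-scaled library sizes, and the filter and the floor of 3 counts to unscaled totals. Single values and ratios had exact permutation tests, two-sided. Lengths, positions and 3′UTRs came from GENCODE vM21, which holds 98.0% of the gene identifiers. The fits were tested on simulated data. Total counts ranged from 8639444 to 44092144, which sets the precision. Alternatives were edgeR's exact test, DESeq2 1.42.0, other scalings and filters, a replicate block, and leaving out libraries.

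The 10 genes and the lists of other pathway genes and markers were chosen with earlier results of these data known. All 10 are named, as are all 20 other pathway genes, Cnot7, Cnot8 and markers. Ratios of Lsm1 to Lsm8 and of Edc3 to Clk3, and Clk3 itself, were added after the values were seen.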

Additional observations from a re-analysis of the deposited data

Results flagged for a closer look

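In 5 of 28 groups of 4 libraries (10 mRNAs and 4 ratios, each in 2 groups), one library was farther from the rest than Dixon's critical value allows, which chance gives in about 1 of 20 groups. Dcp2 was high in control replicate 1, at 424 CPM beside 317 to 323 CPM in the other controls, and low in KO replicate 3, at 157 CPM beside 206 to 208 CPM in the other KO libraries. Xrn1 was high in KO replicate 4, at 84.5 CPM beside 52.5 to 56.6 CPM. The log2 ratio of Xrn1 to Xrn2 was highest in the same library, at -0.90 beside -1.37 to -1.32. The log2 ratio of Pnrc1 to Pnrc2 was lowest in control replicate 3, at 3.75 beside 4.44 to 4.55 in the other controls.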

How the results depend on the processing

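No direction of the 10 mRNAs changed under any of the 18 alternatives run for each, and 171 of the 180 alternative values kept the direction and the side of the threshold. The 9 others were losses of Dcp1a (also with upper quartile scaling), Pnrc1 and Xrn2 and gains of Xrn1, with library size only and when TMM used genes of 10 CPM or more. The number of lower mRNAs among the 10 was 3 with each of these 2 scalings. Among the 20 other pathway genes, they each gave 4 higher and 6 lower genes. Of all 19241 genes tested, 7744 were higher and 2618 lower with library size only, and 7589 and 2865 with the other scaling. With one library left out at a time, 1 to 2 of the 20 were higher (1 without control replicate 2 or 4). Leaving out a library changed no call among the 10 mRNAs, and the number past 2-fold ranged from 2 (without control replicate 2 or KO replicate 4) to 4. In the same fits the log2 difference in ratio was -1.46 to -1.19 for Pnrc1 to Pnrc2 and 2.601 to 3.49 for Edc3 to Edc4. Pnrc1 to Pnrc2 lost its call without KO replicate 1, 2 or 4 (exact permutation test, two-sided p = 0.0571). Edc3 to Edc4 lost its call when any one KO replicate was left out (exact permutation test, two-sided p = 0.0571). Both ratios kept their calls when any one control replicate was left out (exact permutation test, two-sided p = 0.0286). The number of libraries was the same in these tests, so that it does not account for the lost calls. With the replicate block, 3 of the 10 mRNAs were higher and 6 lower, and 9 of the 20 others were lower. Without both control replicate 1 and KO replicate 4, no call among the 10 mRNAs changed. Log2 fold changes were then -0.75 for Dcp2, -1.59 for Dcp1b and -0.39 for Pnrc1. The log2 differences in ratio were then 3.46 for Edc3 to Edc4 and 0.63 for Xrn1 to Xrn2. Libraries of the same number did not deviate together (r from -0.12 to 0.11), so that the numbers were not taken as pairs. Dcp1b and Edc3, at 3 to 52 counts per library, are limited most by depth.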

Other observations

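Among the 10 mRNAs, Xrn1 and Xrn2 were highest, and Edc4 and Dcp1b lowest, in both control replicate 1 and KO replicate 4, each within its own group. The longest coding transcripts of the first 2 have a GC content of 41.9% and 43.7%, and those of the last 2 have 55.5% and 52.5%. Of the 20 other pathway genes, 6 were highest in both libraries (GC content from 41.7% to 50.2%, median 44.7%) and 5 were lowest in both (from 52.6% to 59.9%, median 55.5%). Lsm4, Lsm7 and Dxo were among the latter. These values were looked at after the 2 libraries had been seen to stand apart. Both were the deepest of their groups, and the part of base composition or depth in the differences was not tested.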
